A study of Mus musculus with 14 samples.

Results

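The 42 genes described here are the members of the Slc25 family of mitochondrial carriers whose symbols consist of Slc25a and a number, and they were taken by that symbol alone from the 16703 genes that the table of spinal cord expression holds. The mm10 gene annotation used here lists 47 such genes, and the other 5 were not analysed here. RNA of the spinal cord of C57Bl/6 mice with experimental autoimmune encephalomyelitis (EAE), an immune attack on central myelin induced with a MOG peptide, was sequenced in 14 libraries. In every group the gonads had been removed, the females being ovariectomized and the males castrated, and the mice were 9 to 10 weeks old when they entered the protocol. From the onset of neurological symptoms the mice received intranasal dihydrotestosterone (DHT), the androgen that binds the androgen receptor without being turned into an estrogen, or the vehicle, which gave 4 vehicle and 3 DHT libraries of each sex, and the time from onset to the removal of these cords is not given in the sources used here. Females and males were 2 datasets, so that sex and dataset cannot be told apart, and no group without EAE and no gonad-intact group was part of the comparison. A library is named by its group and its number in the table, which for the male DHT group runs from 2 to 4.

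The inner mitochondrial membrane is closed to most charged solutes, and the carriers of this family are the proteins that let chosen ones through, usually as an exchange of one for another. They bring ADP and phosphate to the ATP synthase and carry ATP out, move citrate, malate, aspartate and glutamate between the matrix and the cytosol, and import iron, glutathione, carnitine esters and the cofactors of matrix enzymes. In nervous tissue they are known above all for supplying ATP to axons and synapses, for the malate-aspartate shuttle of neurons and for the handling of glutamate in astrocytes. The carriers are encoded in the nucleus, so their transcripts are measured like those of any other gene, and a transcript level says nothing of transport itself.

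The levels are log2 CPM, the log2 of read counts scaled to the size of the library (CPM) after the normalization of the authors, in libraries of 29311155 to 35761972 recovered reads. Reads here are whole numbers recovered from these normalized values, so they are not raw reads and their totals are not sequencing depth. A gene was called when its adjusted p in limma was under 0.05, and each fold change is the difference in mean log2 CPM between DHT and vehicle, given with its standard error (SE). Markers of neurons, oligodendrocytes and astrocytes were detected in every library. The summed level of 9 microglia and macrophage markers was 9.82 to 10.95 (log2 of summed CPM) in female vehicle and 7.61 to 9.78 in female DHT libraries, and 10.90 to 11.41 against 9.48 to 10.22 in males. All 8 measured T cell markers and all 9 microglia markers were called lower in females, whereas 11 of 12 neuron markers were called higher. Of all genes 27.3% were called lower and 19.8% higher there. In males 3 of 9 microglia and 0 of 8 T cell markers were called lower and 4 of 12 neuron markers higher. The male shares of all genes were 10.7% lower and 12.1% higher. Without the library labelled male DHT 3 these male counts were 1, 0 and 1, where 7.2% of all genes were called. In a bulk sample fewer cells of a type and less RNA per cell cannot be told apart. The library labelled male DHT 3 goes against its label, with Xist at 7.41 and Ddx3y at -2.98, and female vehicle 3 held Xist at 3.04 and Ddx3y at 0.77. In the 35 members with at least 200 reads in every library, the value of male DHT 3 followed from the other 13 libraries to within 0.0033 (log2). The relation behind this, called the missing direction, was found in these same values. It also held over 10958 genes, with a median error of 0.00024 (log2). Of its squared weight 62.8% lay on male DHT 3 and 23.7% on female vehicle 3, so the loss is shared between libraries. Given the other 13 libraries, male DHT 3 adds next to no observation of its own. The calls in males and the differences between the sexes that were called are given with and without male DHT 3.

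The levels per length covered a wide range. Per kilobase of exon, the ADP/ATP carrier Slc25a4 stood highest at 7.53 (log2 CPM per kilobase, mean of 14 libraries), followed by its relative Slc25a5 at 7.0 and the phosphate carrier Slc25a3 at 5.95. These are the carriers of oxidative phosphorylation, and the ranges of the 3 over libraries did not meet. Next came the calcium-regulated nucleotide carrier Slc25a23 at 5.12, the oxoglutarate carrier Slc25a11 at 5.02 and the citrate carrier Slc25a1 at 4.94, whose ranges overlapped. At the lower end stood Slc25a53 at 0.36, Slc25a43 at -0.06, Slc25a47 at -0.10 and the oxoadipate carrier Slc25a21 at -2.59, the last with as few as 11 reads in a library.

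**Figure D1:**
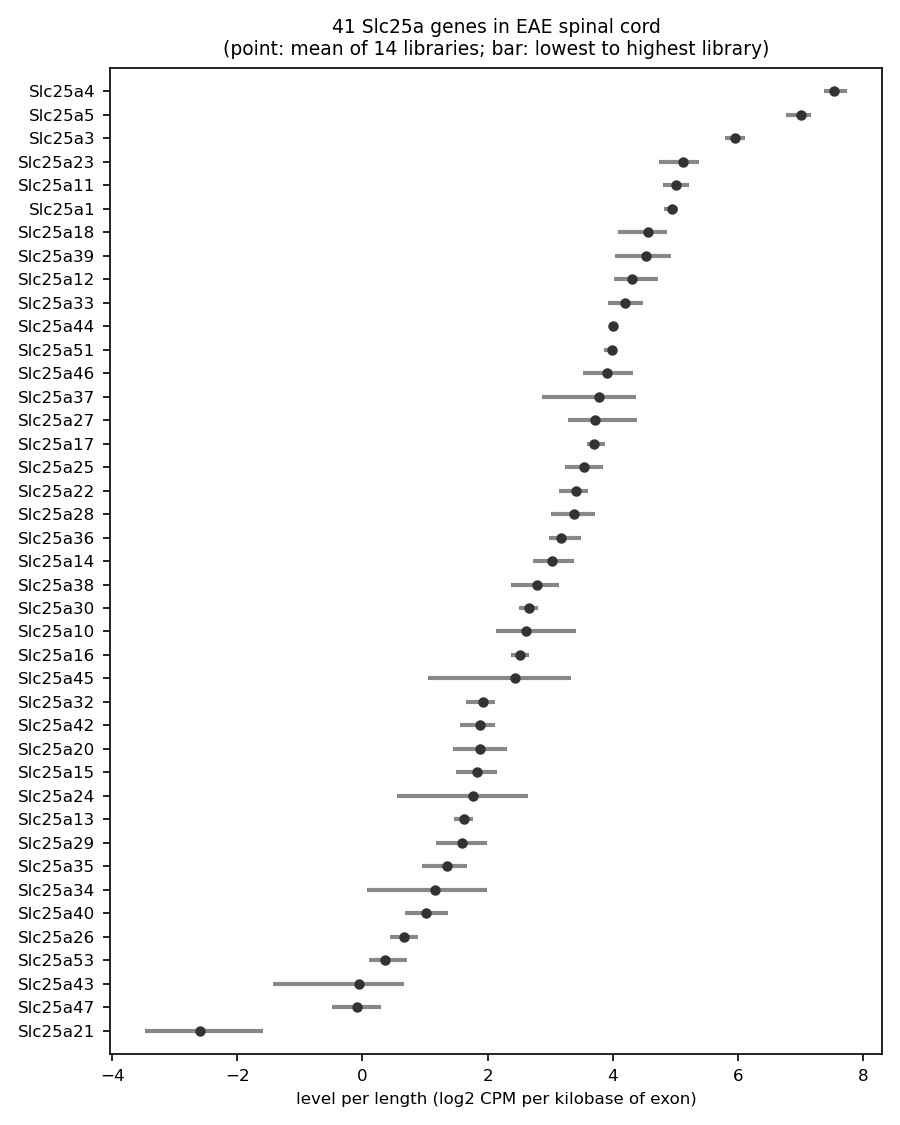
Levels of 41 of the 42 Slc25a genes per length on the x axis (log2 CPM per kilobase of exon), ordered from the highest (top) to the lowest, with the point at the mean of 14 libraries and the bar from the lowest to the highest library. Slc25a4, Slc25a5 and Slc25a3 stand apart at the top with narrow bars, and Slc25a45, Slc25a24, Slc25a37 and Slc25a43 have some of the widest bars.

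The first question was which carriers differed between DHT and vehicle in females. DHT went with 13 carriers called higher and 9 called lower, 22 of 42 (52.4%), and 20 were not called. Of all 16703 genes 19.8% were called higher and 27.3% lower in this comparison, so the total share among the carriers was near the background of 47.1%. The median fold change of the 42 carriers was 0.11, against -0.02 over all genes. The highest fold changes among the calls belonged to Slc25a27, Slc25a12 and Slc25a29, and the lowest to Slc25a24, Slc25a45, Slc25a37 and Slc25a43. DHT and vehicle libraries did not overlap in 15 carriers that were higher and 6 that were lower, against 19.0% and 21.4% of all genes. Centred on housekeeping genes the counts were 28 higher and 4 lower, where 44.1% and 15.3% of all genes were called, and after quantile normalization 20 and 5, where the shares of all genes were 30.7% and 19.4%. Of the 28 housekeeping genes themselves 17 were called lower and 3 higher in females, with a median fold change of -0.25. When the shared factor of the housekeeping genes entered the model, limma called 0 of the 16703 genes in females and so 0 carriers, with 0 carriers at an unadjusted p under 0.05. The factor itself was 0.11 to 0.60 in female DHT and -0.28 to -0.01 in female vehicle libraries. It thus lay apart by treatment, so this fit cannot tell the factor from DHT and these counts say nothing of the carriers.

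The female DHT libraries differed in how far they lay from the vehicle group. In 19 of the 22 called carriers DHT 3 was the DHT library nearest to the vehicle mean, and in 17 DHT 1 was the farthest from it. Without DHT 1, 4 carriers were called higher and 4 lower (19.0%, against 26.3% of all genes), without DHT 2 the counts were 7 and 5 (28.6% against 28.3%), and without DHT 3 they were 14 and 11 (59.5% against 53.2%), so the counts over all genes moved in the same direction. DHT 1 and DHT 2 held the lowest microglia markers, with mean levels of 3.77 and 4.56 (log2 CPM) against 6.08 in DHT 3 and 6.12 to 7.19 in the vehicle group, and the part of this in the carrier results was not tested. Without female vehicle 3 the counts were 13 higher and 8 lower, where 48.5% of all genes were called. The calls of Slc25a12, Slc25a14, Slc25a24, Slc25a27, Slc25a37, Slc25a39, Slc25a45 and Slc25a46 held whichever single library was left out, and the other 14 were each lost without at least 1 library.

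In males 2 carriers were called higher and 9 lower, 11 of 42 (26.2%), and 31 were not called. Over all genes 12.1% were called higher and 10.7% lower, 22.8% in total. The median fold change of the carriers was -0.07, against -0.00 over all genes. Male DHT and vehicle libraries did not overlap in 6 carriers that were higher and 15 that were lower, against 18.5% and 20.4% of all genes. Without male DHT 3, 0 carriers were called higher and 2 lower, namely Slc25a10 and Slc25a39, where 7.20% of all genes were called in place of 22.8%. At an unadjusted p under 0.05 there were then 2 higher and 11 lower in limma. Without male vehicle 4, 0 were called higher and 3 lower, with 4 and 13 at an unadjusted p under 0.05, where 10.4% of all genes were called. Without male DHT 2 the counts were 3 and 4 (17.4% of all genes called), without male vehicle 1 they were 1 and 5 (14.2%), and without male vehicle 2 they were 1 and 7 (16.3%). Of the 31 carriers not called in males 0 were called by limma without DHT 3, the fold change of Slc25a21 moved by 0.22, those of the others by at most 0.09, and Slc25a15 and Slc25a17, both near zero, changed sign. The counts without overlap were 6 and 15 without DHT 3 too, where 21.7% and 23.6% of all genes did not overlap. Slc25a10 and Slc25a39 were the 2 male calls that held whichever single library was left out.

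**Figure D2:**
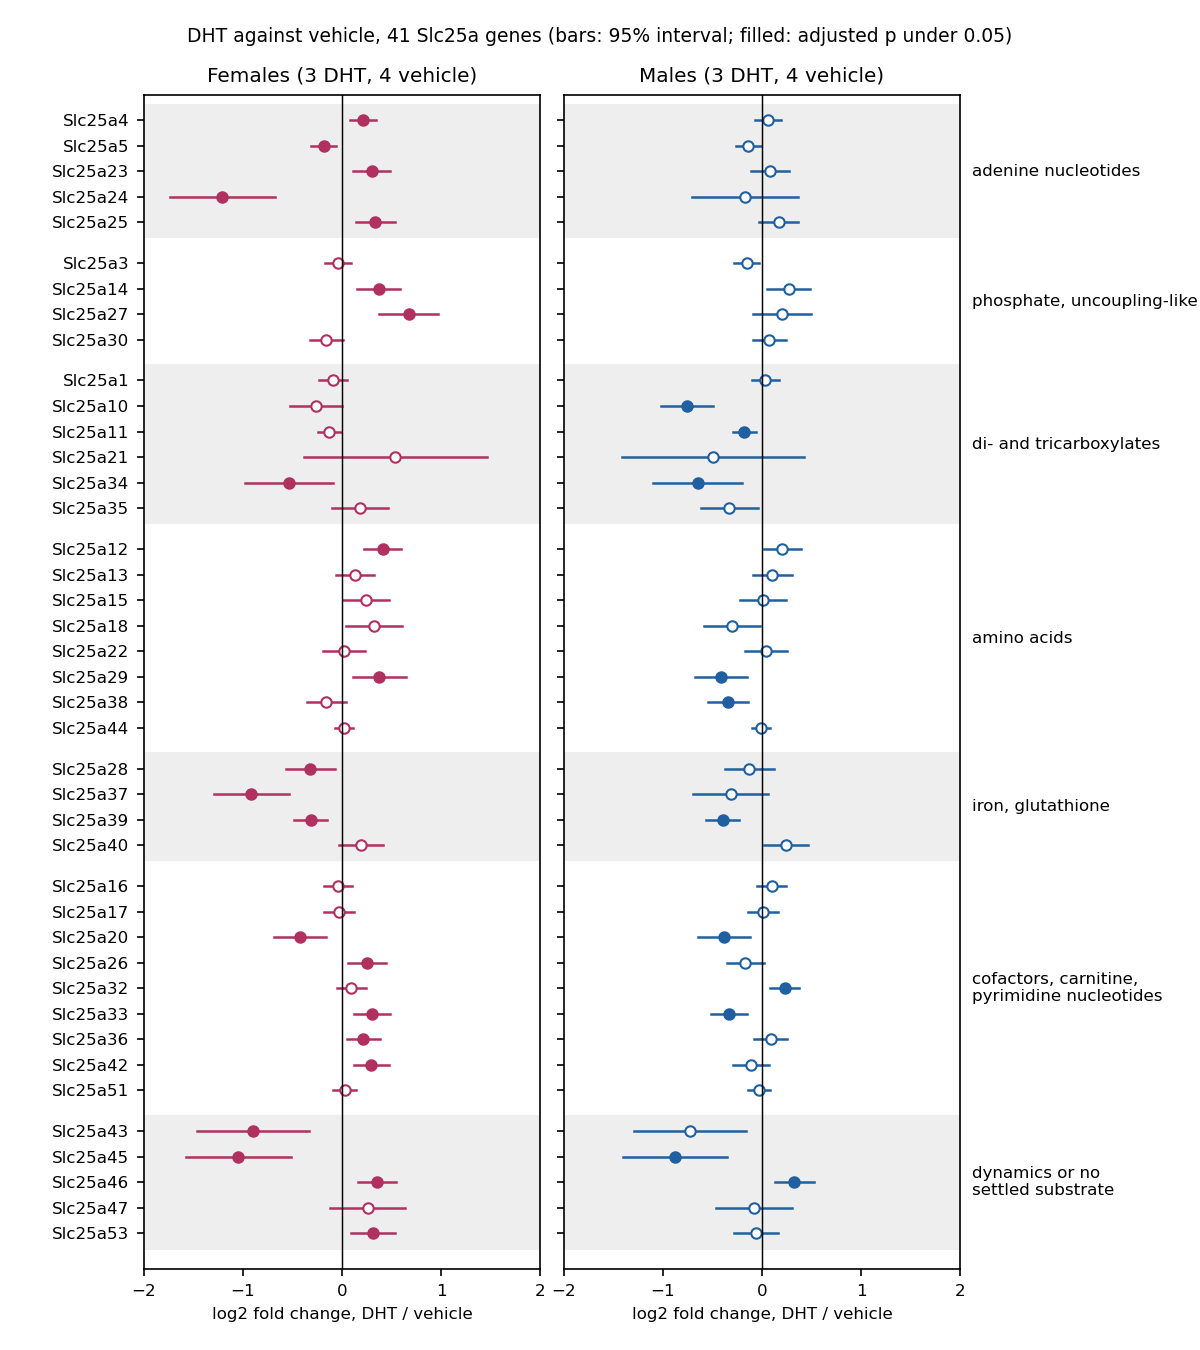
Fold change between DHT and vehicle (x axis, log2) of 41 of the 42 carriers, grouped by what they carry, in females (left) and males (right), with 95% intervals from limma and filled points where the adjusted p was under 0.05. In females filled points lie on both sides of zero, 13 to the right and 9 to the left, and in males 9 of the 11 filled points lie to the left. Slc25a5, filled to the left in females, turned to the right when the data were centred on housekeeping genes.

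Of the carriers called in both sexes, 5 had the same direction and 2 had opposite directions, against 11.9% and 0.617% of all genes. Slc25a20, Slc25a34, Slc25a39 and Slc25a45 were lower and Slc25a46 was higher in both, while Slc25a29 and Slc25a33 were higher in females and lower in males. Without male DHT 3, Slc25a39 alone was still called in both sexes. In that fit 7.2% of all genes were called in males, in place of 22.8%. The 15 carriers called in females alone and the 4 called in males alone are not thereby shown to differ between the sexes. In the test of the difference itself, 2 carriers were called with a positive difference (females minus males) and 0 with a negative one, against 0.503% and 1.35% of all genes, or 1.86% in either direction. At an unadjusted p under 0.05 there were 9 positive and 2 negative differences. The voom function of limma on the recovered reads also called 2 and 0, where 2.57% of all genes were called. Both calls held without female vehicle 3, female DHT 3 or male DHT 4, and both were lost when any of the other 11 libraries was left out. In those 11 analyses the difference stayed between 0.69 and 0.83 for Slc25a29 and between 0.57 and 0.69 for Slc25a33, and in 8 of them no gene of the whole table was called for the difference.

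The 5 adenine nucleotide carriers were all called in females and in no case in males, where 47.1% and 22.8% of all genes were called. None of the 5 was called for the difference between the sexes, so a difference between the sexes is not shown. Slc25a4 and Slc25a5 exchange cytosolic ADP for matrix ATP, the former being the main form of heart, muscle and brain and the latter of dividing cells. Slc25a4 had levels of 8.64, 8.72, 8.75 and 8.61 in female vehicle libraries and 8.98, 8.91 and 8.79 with DHT, a fold change of 0.21 (SE 0.06, adjusted p = 0.0120). The groups did not overlap, and DHT 1 was the highest. In males the levels were 8.71, 8.70, 8.80 and 8.71 with vehicle and 8.79, 8.76 and 8.82 with DHT, 0.06 (SE 0.06, adjusted p = 0.492). These male groups overlapped at vehicle 3, and male DHT 2 and 4 were also the libraries with raised muscle markers, at mean levels of 2.35 and 0.77 against -1.68 to -1.0 in male vehicle libraries.

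Slc25a5 moved the other way in females, from 7.76, 7.72, 7.70 and 7.84 with vehicle to 7.52, 7.49 and 7.70 with DHT, -0.19 (SE 0.06, adjusted p = 0.0197). Female DHT 3 lay barely under the lowest vehicle library, and the fold change turned to 0.09 (adjusted p = 0.152) when the data were centred on housekeeping genes. Male levels were 7.80, 7.84, 7.89 and 7.80 with vehicle and 7.69, 7.67 and 7.72 with DHT, -0.14 (SE 0.06, adjusted p = 0.100), again without overlap. A transcribed processed copy, Slc25a5-ps, shares sequence with this gene, so some reads could have been split between them. Within a library Slc25a4 exceeded Slc25a5 by 0.88, 0.99, 1.05 and 0.77 (log2 CPM) with vehicle and by 1.46, 1.42 and 1.09 with DHT in females. In males the excess was 0.91, 0.86, 0.92 and 0.91 with vehicle and 1.10, 1.09 and 1.10 with DHT. The difference between these 2 genes, which the scaling of a library does not touch, was higher in all DHT libraries than in all vehicle libraries of the same sex. In females this had to be so, because each gene alone was already without overlap, in opposite directions. The male DHT libraries include DHT 3, which adds next to no observation of its own. The share of other gene pairs with such a separation is not given here.

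The windows around the starts of these 2 genes are shown because they are the most abundant carriers and had opposite signs in females, other than after centring on housekeeping genes or with their shared factor in the model. Each runs from 250 bases before to 50 bases after the RefSeq start in GRCm38.p6, at chr8:46211013-46211312 on the minus strand for Slc25a4 and chrX:36795347-36795646 on the plus strand for Slc25a5, and capitals mark CCAAT and TATAA on the strand shown or its complement.
Slc25a4: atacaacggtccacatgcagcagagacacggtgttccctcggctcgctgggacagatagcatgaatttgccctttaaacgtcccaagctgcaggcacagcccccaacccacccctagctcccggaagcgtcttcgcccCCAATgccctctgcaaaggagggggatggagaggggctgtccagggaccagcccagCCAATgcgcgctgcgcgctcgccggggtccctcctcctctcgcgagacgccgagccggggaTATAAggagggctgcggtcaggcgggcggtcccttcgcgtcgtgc
Slc25a5: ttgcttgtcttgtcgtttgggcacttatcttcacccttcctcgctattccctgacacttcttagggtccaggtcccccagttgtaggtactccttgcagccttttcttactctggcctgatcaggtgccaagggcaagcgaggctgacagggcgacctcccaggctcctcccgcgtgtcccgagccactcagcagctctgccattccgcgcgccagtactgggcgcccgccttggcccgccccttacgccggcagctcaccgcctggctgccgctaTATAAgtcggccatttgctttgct
CCAAT occurred at bases 139 and 195 of the Slc25a4 window and nowhere in that of Slc25a5, and TATAA at base 256 and base 277. Both TATAA matches thus lay after the RefSeq start and not before it. The mm10 gene annotation used for lengths starts Slc25a5 at 36795651, after the end of its window, so its match lies before that start. It starts Slc25a4 at 46211284 on the minus strand, and the match of Slc25a4 lies after that start too. The letters AGAACA, an androgen receptor half-site, were in neither window. Over the 33 carriers with a window, CCAAT on either strand was in 19 (57.6%, against 42.3% of 12971 genes), TATAA in 5 (15.2% against 17.5%) and AGAACA in 3 (9.09% against 15.6%), namely Slc25a17, Slc25a43 and Slc25a45. Such matches describe letters and are not binding sites.

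The other 3 members of this group, Slc25a23, Slc25a24 and Slc25a25, exchange ATP-magnesium for phosphate under the control of calcium and so set the amount of adenine nucleotide in the matrix. Slc25a24 had the largest fall of all carriers in females, from 3.93, 3.76, 3.65 and 4.43 with vehicle to 2.33, 2.51 and 3.36 with DHT, -1.21 (SE 0.25, adjusted p = 0.00478). DHT 1 and DHT 2 lay more than 1 log2 unit below the lowest vehicle library, and DHT 3 stood between. In males it stood at 3.75, 3.68, 3.95 and 3.64 with vehicle and 3.92, 3.58 and 3.26 with DHT, -0.17 (SE 0.25, adjusted p = 0.647), with overlap.

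Slc25a23, a form of brain and liver, stood at 7.47, 7.51, 7.52 and 7.15 with vehicle and 7.78, 7.79 and 7.57 with DHT in females, 0.30 (SE 0.09, adjusted p = 0.0155). Vehicle 4 was the low library of its group, and DHT 3 exceeded the highest vehicle library by little. Male levels were 7.52, 7.42, 7.48 and 7.50 with vehicle and 7.52, 7.54 and 7.61 with DHT, 0.08 (SE 0.09, adjusted p = 0.545). Slc25a25 went from 6.41, 6.59, 6.47 and 6.20 with vehicle to 6.82, 6.76 and 6.69 with DHT in females, 0.33 (SE 0.09, adjusted p = 0.0111), without overlap. In males it was 6.29, 6.57, 6.36 and 6.36 with vehicle and 6.49, 6.52 and 6.68 with DHT, 0.17 (SE 0.09, adjusted p = 0.199). The excess of Slc25a23 over Slc25a24 was 3.54, 3.75, 3.88 and 2.72 in female vehicle and 5.45, 5.28 and 4.21 in female DHT libraries, and that of Slc25a23 over Slc25a25 was 1.06, 0.93, 1.05 and 0.94 with vehicle and 0.96, 1.03 and 0.88 with DHT. The mean of the latter difference moved by -0.04 with DHT, whereas the former was wider in each female DHT library than in any female vehicle library. That separation follows from Slc25a23 and Slc25a24 each being without overlap in females, in opposite directions.

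**Figure D3:**
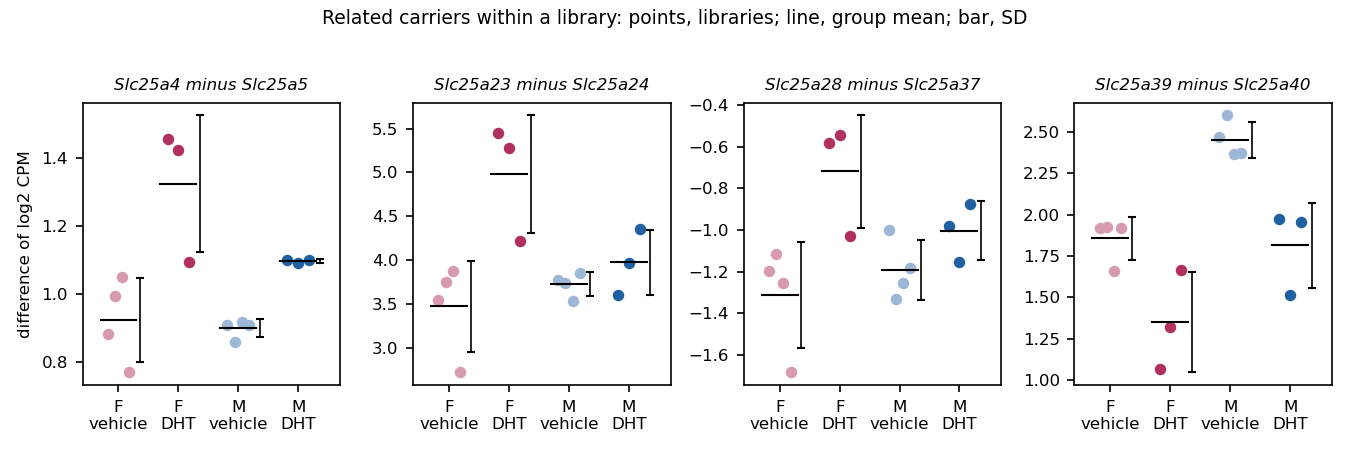
Difference in level between related carriers within each library (y axis, log2 CPM of the first minus the second; F, females; M, males), with points for libraries, a line at the group mean and a bar of 1 SD. Slc25a4 minus Slc25a5 was 1.09 or more in every DHT library of both sexes and at most 1.05 in the vehicle libraries, and Slc25a39 minus Slc25a40 was lower with DHT in males without overlap. The former separation in females and the latter in males follow from each gene of the pair being without overlap by itself.

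Among the phosphate and uncoupling-like carriers, 2 of 4 were called higher in females and none of 4 in males, where 2 had an unadjusted p under 0.05. Of all genes 19.8% were called higher in females and 22.8% in either direction in males. Slc25a27 and Slc25a14, known as uncoupling proteins of the brain, are mostly found in neurons. Slc25a27 had the largest rise of all carriers in females, from 5.53, 5.52, 5.68 and 5.26 with vehicle to 6.37, 6.34 and 5.80 with DHT, 0.67 (SE 0.14, adjusted p = 0.00478). DHT 3 stood between the vehicle group and the other DHT libraries. In males the levels were 5.51, 5.48, 5.54 and 5.51 with vehicle and 5.50, 5.77 and 5.87 with DHT, 0.20 (SE 0.14, adjusted p = 0.302), where DHT 2 lay among the vehicle libraries. Slc25a14 went from 4.14, 4.47, 4.20 and 4.01 with vehicle to 4.62, 4.58 and 4.53 with DHT in females, 0.37 (SE 0.10, adjusted p = 0.0106). Its male levels were 4.10, 4.07, 4.03 and 3.97 with vehicle and 4.16, 4.36 and 4.43 with DHT, 0.27 (SE 0.10, adjusted p = 0.0663), without overlap but not called, and 0.25 (adjusted p = 0.183) without male DHT 3. Neuron markers moved with these genes, with a summed level of 12.18 to 12.65 in female vehicle and 12.71 to 13.08 in female DHT libraries, and 12.14 to 12.32 against 12.59 to 12.69 in males, and their part in the result was not tested. The phosphate carrier Slc25a3 had fold changes of -0.04 (SE 0.06, adjusted p = 0.596) in females and -0.16 (SE 0.06, adjusted p = 0.0769) in males, and Slc25a30 -0.16 (SE 0.08, adjusted p = 0.108) and 0.07 (SE 0.08, adjusted p = 0.520).

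The di- and tricarboxylate carriers showed 3 of 6 called lower in males and 1 of 6 called lower in females, against 10.7% and 27.3% of all genes. Slc25a10, the dicarboxylate carrier that exchanges malate or succinate for phosphate, had the smallest p of all carriers in males. The gene lies on chromosome 11 from 120491840 to 120499187 (mm10, plus strand), and the antisense gene Gm11788 covers 6.60% of its exon bases. It stood at 4.84, 4.82, 4.78 and 5.20 with vehicle and 4.15, 4.19 and 4.12 with DHT, -0.76 (SE 0.12, adjusted p = 0.00439), a change of -40.9%. The 3 DHT libraries lay close together and well below the lowest vehicle library. Without male DHT 3 its fold change was -0.78 (adjusted p = 0.0237), and the call held in each of the 27 alternative analyses. Those that left out only female libraries could not move this male fold change, only its SE and adjusted p. In females the levels were 4.17, 4.18, 4.46 and 4.53 with vehicle and 4.24, 3.93 and 4.06 with DHT, -0.26 (SE 0.12, adjusted p = 0.0958), with overlap, and the difference between the sexes was 0.50 (SE 0.17, adjusted p = 0.102). The male vehicle libraries lay above all female ones, and the male DHT libraries among the female vehicle and DHT libraries.

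Slc25a34 and Slc25a35 are counted here as relatives of the yeast oxaloacetate carrier, although their own substrates are not settled, and without both of them the male count was 2 of 4. Slc25a34, the one call of the group in females, was called in both sexes. Females went from 2.29, 2.25, 2.50 and 2.54 with vehicle to 1.49, 1.99 and 2.10 with DHT, -0.54 (SE 0.21, adjusted p = 0.0479). Males went from 3.41, 2.92, 3.34 and 3.37 with vehicle to 2.86, 2.11 and 2.86 with DHT, -0.65 (SE 0.21, adjusted p = 0.0394), with DHT 3 lowest. Without female vehicle 3 the female fold change was -0.50 (adjusted p = 0.0872), and without male DHT 3 that of males was -0.40 (adjusted p = 0.179). The female call of Slc25a34 was lost in 19 of the 27 alternative analyses and the male call in 8. The oxoglutarate carrier Slc25a11, a limb of the malate-aspartate shuttle, had fold changes of -0.13 (SE 0.05, adjusted p = 0.0642) in females and -0.18 (SE 0.05, adjusted p = 0.0313) in males, the latter -0.18 (adjusted p = 0.0868) without male DHT 3. Slc25a11 shares 8.92% of its exon bases with Rnf167 on the other strand. The citrate carrier Slc25a1, with -0.09 (SE 0.06, adjusted p = 0.247) and 0.03 (SE 0.06, adjusted p = 0.728), the oxoadipate carrier Slc25a21, with 0.54 (SE 0.43, adjusted p = 0.312) and -0.50 (SE 0.43, adjusted p = 0.419), and Slc25a35, with 0.18 (SE 0.13, adjusted p = 0.262) and -0.33 (SE 0.13, adjusted p = 0.0866), were not called. Slc25a35 shares 31.3% of its exon bases with Rangrf on the other strand, and whether the counting used strand is not given in the sources used here.

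Of the 8 amino acid carriers 2 were called higher in females and 2 lower in males, against 19.8% and 10.7% of all genes. Slc25a12 and Slc25a13 exchange matrix aspartate for cytosolic glutamate when cytosolic calcium rises, the former in brain and muscle and the latter mostly in liver. Slc25a12 rose in females from 7.11, 7.18, 7.13 and 6.93 with vehicle to 7.59, 7.58 and 7.32 with DHT, 0.41 (SE 0.09, adjusted p = 0.00490), without overlap. Its male levels were 6.97, 7.02, 7.19 and 6.89 with vehicle and 7.19, 7.26 and 7.22 with DHT, 0.21 (SE 0.09, adjusted p = 0.0988). Slc25a13, a much lower gene in the cord, stood at 3.52, 3.39, 3.64 and 3.38 with vehicle and 3.46, 3.69 and 3.69 with DHT in females, 0.13 (SE 0.09, adjusted p = 0.248). Its male levels were 3.56, 3.38, 3.60 and 3.48 with vehicle and 3.60, 3.61 and 3.61 with DHT, 0.11 (SE 0.09, adjusted p = 0.420), without a call in either sex. Slc25a12 exceeded Slc25a13 per kilobase by 2.69 (log2) in the mean of all libraries, and the excess in log2 CPM was 3.58, 3.79, 3.49 and 3.55 in female vehicle and 4.14, 3.88 and 3.63 in female DHT libraries, which overlapped.

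The glutamate carriers Slc25a18 and Slc25a22 bring glutamate into the matrix, the former in astrocytes above all. Slc25a18 stood at 5.46, 5.14, 5.56 and 5.24 with vehicle and 5.72, 5.70 and 5.59 with DHT in females, 0.32 (SE 0.13, adjusted p = 0.0602). Males had 5.55, 5.80, 5.51 and 5.72 with vehicle and 5.02, 5.48 and 5.53 with DHT, -0.30 (SE 0.13, adjusted p = 0.113). Female DHT libraries were above all female vehicle libraries, while male DHT 2 was the lowest of the 14. The difference between the sexes was 0.62 (SE 0.19, adjusted p = 0.0766), which did not pass the threshold. Slc25a22 was 6.11, 6.17, 5.89 and 5.73 with vehicle and 5.99, 5.95 and 6.04 with DHT in females, 0.02 (SE 0.10, adjusted p = 0.885). Males had 5.99, 6.06, 6.0 and 5.94 with vehicle and 5.99, 5.92 and 6.19 with DHT, 0.04 (SE 0.10, adjusted p = 0.799). Neither comparison of Slc25a22 separated the groups. Astrocyte markers summed to 12.76 to 13.21 in female vehicle and 12.59 to 13.10 in female DHT libraries, and to 13.10 to 13.33 with vehicle against 12.93 to 13.06 with DHT in males. In males they were thus lower with DHT without overlap, and their part in the values of Slc25a18 was not tested.

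Slc25a29, a carrier of arginine, lysine and other basic amino acids, was one of the 2 carriers whose fold change with DHT differed between the sexes. In females it rose from 2.59, 2.73, 2.90 and 2.55 with vehicle to 3.10, 3.14 and 2.97 with DHT, 0.38 (SE 0.12, adjusted p = 0.0232). In males it fell from 3.36, 3.15, 3.23 and 3.31 with vehicle to 2.65, 2.79 and 3.11 with DHT, -0.41 (SE 0.12, adjusted p = 0.0300). The groups did not overlap in either sex, and the difference between the fold changes was 0.79 (SE 0.17, adjusted p = 0.0424). Without male DHT 3 the difference was 0.76 (adjusted p = 0.0922) and the male fold change was -0.38 (adjusted p = 0.108), while the female one was 0.45 (adjusted p = 0.0120) without female vehicle 3. The vehicle libraries of males lay above those of females, and with DHT the lowest female library, at 2.97, lay above male DHT 2 and DHT 3.

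Slc25a38, which brings glycine into the matrix for heme synthesis, was lower in males, from 4.45, 4.59, 4.49 and 4.38 with vehicle to 4.06, 4.10 and 4.25 with DHT, -0.34 (SE 0.09, adjusted p = 0.0209), and -0.32 (adjusted p = 0.0797) without male DHT 3. Female levels were 4.28, 4.23, 4.18 and 4.17 with vehicle and 4.13, 3.83 and 4.21 with DHT, -0.16 (SE 0.09, adjusted p = 0.167), with overlap. The ornithine carrier Slc25a15, with 0.24 (SE 0.11, adjusted p = 0.0783) in females and 0.01 (SE 0.11, adjusted p = 0.960) in males, and the branched-chain amino acid carrier Slc25a44, with 0.02 (SE 0.04, adjusted p = 0.777) and -0.01 (SE 0.04, adjusted p = 0.941), were not called.

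Of the 4 carriers of iron and glutathione, 3 were called lower in females and 1 in males, against 27.3% and 10.7% of all genes. Slc25a37 and Slc25a28 are mitoferrins 1 and 2, which import iron for heme and iron-sulfur clusters, the former known from red cell precursors. Slc25a37 fell in females from 6.72, 6.53, 6.45 and 6.96 with vehicle to 5.55, 5.46 and 6.23 with DHT, -0.92 (SE 0.18, adjusted p = 0.00478), a change of -47.0%, with the smallest p of all carriers in that comparison. Gm31748 on the other strand covers 6.33% of its exon bases. DHT 1 and DHT 2 lay far below the vehicle group and DHT 3 just below it. Its male levels were 6.46, 6.73, 6.45 and 6.80 with vehicle and 6.40, 6.29 and 6.20 with DHT, -0.32 (SE 0.18, adjusted p = 0.207), also without overlap but not called. Slc25a28 stood at 5.52, 5.42, 5.19 and 5.28 with vehicle and 4.97, 4.92 and 5.20 with DHT in females, -0.32 (SE 0.11, adjusted p = 0.0343), where DHT 3 lay among the vehicle libraries. In males it was 5.46, 5.40, 5.19 and 5.62 with vehicle and 5.41, 5.13 and 5.33 with DHT, -0.13 (SE 0.11, adjusted p = 0.445). Slc25a28 minus Slc25a37 was -1.20, -1.11, -1.26 and -1.68 in female vehicle and -0.58, -0.54 and -1.03 in female DHT libraries, so that the transcripts came closer in each of the latter. Erythroid markers were not called in either sex, at summed levels of 2.96 to 6.68 in female vehicle and 6.30 to 7.13 in female DHT libraries.

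Slc25a39 and Slc25a40 import glutathione into mitochondria. Slc25a39 was lower in both sexes, from 5.94, 5.90, 5.90 and 6.09 with vehicle to 5.49, 5.67 and 5.77 with DHT in females, -0.32 (SE 0.08, adjusted p = 0.00729). The male fall was from 6.39, 6.35, 6.26 and 6.31 with vehicle to 5.95, 5.81 and 6.04 with DHT, -0.40 (SE 0.08, adjusted p = 0.00710). Neither sex showed overlap, and the male fold change was -0.33 (adjusted p = 0.0376) without male DHT 3. The female fall was no longer called when the data were centred on housekeeping genes. Slc25a40 had the opposite sign without a call, with 4.02, 3.97, 4.24 and 4.17 with vehicle and 4.43, 4.35 and 4.10 with DHT in females, 0.19 (SE 0.10, adjusted p = 0.143). Males had 3.92, 3.75, 3.90 and 3.94 with vehicle and 3.98, 4.29 and 4.09 with DHT, 0.24 (SE 0.10, adjusted p = 0.107). In males the excess of Slc25a39 over Slc25a40 was 2.47, 2.60, 2.37 and 2.37 with vehicle and 1.97, 1.52 and 1.95 with DHT, without overlap, and in females it was 1.92, 1.93, 1.66 and 1.92 with vehicle and 1.06, 1.32 and 1.67 with DHT, where DHT 3 met vehicle 3. The male separation follows from Slc25a39 and Slc25a40 each being without overlap in males, in opposite directions.

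**Figure D4:**
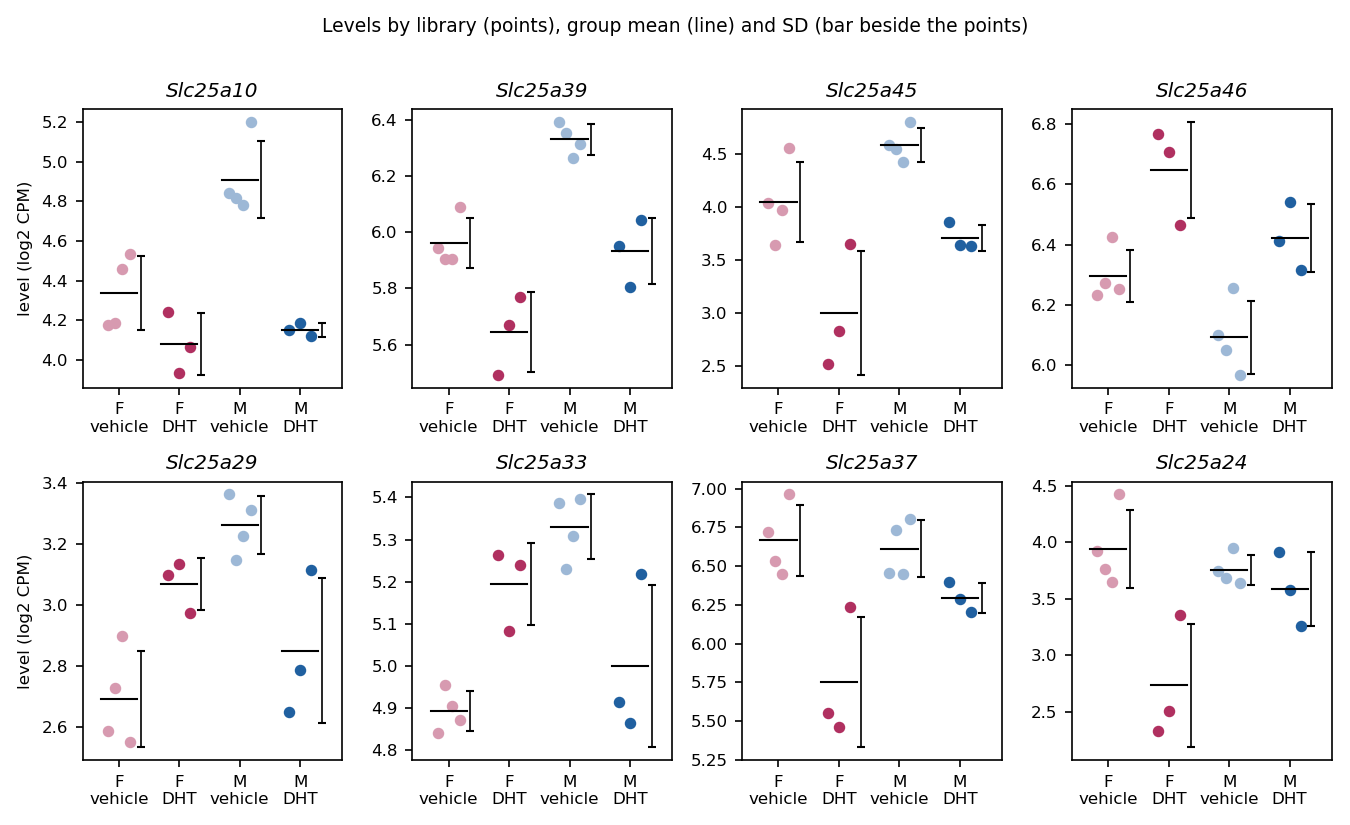
Levels of 8 carriers (y axis, log2 CPM, a scale of its own in each panel) in female (F) and male (M) libraries, with points for libraries, a line at the group mean and a bar of 1 SD. Slc25a10 is lower with DHT in males without overlap, Slc25a29 and Slc25a33 move in opposite directions in the 2 sexes, and Slc25a37 and Slc25a24 show female DHT 3 between the vehicle group and the other DHT libraries.

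The carriers of cofactors, carnitine and pyrimidine nucleotides had 4 of 10 called higher and 1 lower in females, and 1 higher and 2 lower in males. The shares of all genes were 19.8% higher and 27.3% lower in females, and 12.1% and 10.7% in males. Slc25a33 and Slc25a36 bring pyrimidine nucleotides into the matrix for mitochondrial DNA and RNA, and Slc25a33 is known as a target of insulin signalling. Slc25a33 rose in females from 4.84, 4.95, 4.91 and 4.87 with vehicle to 5.26, 5.08 and 5.24 with DHT, 0.30 (SE 0.08, adjusted p = 0.0125). It fell in males from 5.39, 5.23, 5.31 and 5.40 with vehicle to 4.91, 4.86 and 5.22 with DHT, -0.33 (SE 0.08, adjusted p = 0.0181). No library of one group reached the other in either sex, and the difference between the sexes was 0.63 (SE 0.12, adjusted p = 0.0333). Without male DHT 3 the difference was 0.57 (adjusted p = 0.0804) and the male fold change -0.26 (adjusted p = 0.0859). Female vehicle libraries lay between 4.84 and 4.95 and male vehicle libraries between 5.23 and 5.40, whereas with DHT the order was the other way round except for male DHT 4. Slc25a33 lies on chromosome 4 from 149744036 to 149774277 (mm10, minus strand), and an antisense gene, Gm13068, covers 14.9% of the exon bases of Slc25a33.

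Slc25a36 stood at 6.34, 6.35, 6.52 and 6.39 with vehicle and 6.75, 6.61 and 6.49 with DHT in females, 0.22 (SE 0.08, adjusted p = 0.0363). Males had 6.42, 6.25, 6.32 and 6.37 with vehicle and 6.39, 6.56 and 6.33 with DHT, 0.09 (SE 0.08, adjusted p = 0.433). It overlapped between the groups in both sexes. Slc25a36 exceeded Slc25a33 by 1.03, 1.02, 1.01 and 0.98 in male vehicle and 1.48, 1.70 and 1.11 in male DHT libraries, without overlap, and by 1.50, 1.40, 1.61 and 1.52 with vehicle and 1.49, 1.53 and 1.25 with DHT in females. Slc25a42, the coenzyme A carrier, rose in females from 4.31, 4.35, 4.43 and 4.14 with vehicle to 4.70, 4.61 and 4.49 with DHT, 0.30 (SE 0.08, adjusted p = 0.0127). Its male levels were 4.53, 4.53, 4.60 and 4.54 with vehicle and 4.34, 4.38 and 4.59 with DHT, -0.11 (SE 0.08, adjusted p = 0.342), and the difference between the sexes was 0.41 (SE 0.12, adjusted p = 0.0711).

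The S-adenosylmethionine carrier Slc25a26, which supplies methyl groups to the matrix, rose in females from 2.71, 2.91, 2.78 and 2.74 with vehicle to 3.15, 2.96 and 3.0 with DHT, 0.25 (SE 0.09, adjusted p = 0.0319). In males it stood at 3.16, 2.99, 2.99 and 3.0 with vehicle and 2.82, 2.82 and 2.97 with DHT, -0.17 (SE 0.09, adjusted p = 0.179), lower without overlap but not called. Its difference between the sexes was 0.42 (SE 0.12, adjusted p = 0.0745), and the female rise was 0.25 (adjusted p = 0.0503) without female vehicle 3. Slc25a32, the folate and FAD carrier, was higher in males, from 4.40, 4.44, 4.37 and 4.26 with vehicle to 4.55, 4.69 and 4.56 with DHT, 0.23 (SE 0.07, adjusted p = 0.0281), and 0.19 (adjusted p = 0.125) without male DHT 3. Its female levels were 4.47, 4.59, 4.58 and 4.64 with vehicle and 4.72, 4.68 and 4.59 with DHT, 0.09 (SE 0.07, adjusted p = 0.262). The carnitine-acylcarnitine carrier Slc25a20, which lets long-chain fatty acids into the matrix for oxidation, was lower in both sexes, -0.43 (SE 0.12, adjusted p = 0.0133) in females and -0.38 (SE 0.12, adjusted p = 0.0404) in males, and in males -0.45 (adjusted p = 0.0652) without male DHT 3. Slc25a16, the peroxisomal Slc25a17 and the NAD carrier Slc25a51 were called in neither sex, with fold changes from -0.04 to 0.03 in females and from -0.03 to 0.10 in males.

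In the last group, of carriers with a role in mitochondrial shape or without a settled substrate, 2 of 5 were called higher and 2 lower in females, and 1 higher and 1 lower in males. The shares of all genes were 19.8% higher and 27.3% lower in females, and 12.1% and 10.7% in males. Slc25a46 sits in the outer membrane and takes part in the fusion and fission of mitochondria, and its loss causes optic atrophy and neuropathy in humans. B930094E09Rik on the other strand covers 7.06% of its exon bases. It rose in both sexes, from 6.23, 6.27, 6.42 and 6.25 with vehicle to 6.77, 6.71 and 6.47 with DHT in females, 0.35 (SE 0.09, adjusted p = 0.00823). The male rise was from 6.10, 6.05, 6.25 and 5.97 with vehicle to 6.41, 6.54 and 6.32 with DHT, 0.33 (SE 0.09, adjusted p = 0.0222). Its groups did not overlap in either sex, and without male DHT 3 the male fold change was 0.27 (adjusted p = 0.101). Slc25a45 fell in both sexes, from 4.03, 3.64, 3.97 and 4.55 with vehicle to 2.52, 2.83 and 3.65 with DHT in females, -1.05 (SE 0.24, adjusted p = 0.00603). Male levels went from 4.58, 4.54, 4.42 and 4.80 with vehicle to 3.85, 3.64 and 3.63 with DHT, -0.88 (SE 0.24, adjusted p = 0.0242). Female DHT 3 met the vehicle group, the male groups lay apart, and without male DHT 3 the male fold change was -0.84 (adjusted p = 0.0853). Slc25a43 and Slc25a53, for which no substrate is settled, were called in females only, at -0.90 (SE 0.26, adjusted p = 0.0146) and 0.31 (SE 0.10, adjusted p = 0.0268), with male values of -0.73 (SE 0.26, adjusted p = 0.0614) and -0.06 (SE 0.10, adjusted p = 0.715). Slc25a47, a liver carrier, was near the lower end of the levels and was called in neither sex, at 0.26 (SE 0.18, adjusted p = 0.243) in females and -0.08 (SE 0.18, adjusted p = 0.767) in males.

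Genes that work beside the carriers were counted list by list. Beside these counts, 19.8% of all genes were called higher and 27.3% lower in females, and 12.1% and 10.7% in males. Of 4 measured mitochondrial carriers with symbols of another form, Ucp3 was called higher in females (0.52, adjusted p = 0.0126) and Ucp2, the uncoupling protein of immune cells, lower (-1.83, adjusted p = 0.00484), and none was called in males, with list medians of -0.01 and -0.25 against -0.02 and -0.00 over all genes. Among 13 genes of the carrier import machinery, 3 were called higher and 1 lower in females and 2 higher in males, the receptor Tomm70a being higher in both, at 0.26 (adjusted p = 0.00919) and 0.40 (adjusted p = 0.00515), the latter 0.36 (adjusted p = 0.0282) without male DHT 3. Among 19 other mitochondrial transport genes the female counts were 5 higher and 5 lower, with a median of 0.13, and the male counts 3 and 1, with 0.03. Mcub, a subunit that dampens the calcium uniporter, was at -1.34 (adjusted p = 0.00478) in females, and the uniporter regulator Micu3 was at 0.55 (adjusted p = 0.00709) and 0.67 (adjusted p = 0.00776) in females and males, the latter 0.57 (adjusted p = 0.0414) without male DHT 3. Of 15 genes of mitochondrial mass and biogenesis 3 were higher and 4 lower in females, and 3 and 2 in males, with medians of 0.04 and 0.06. Of 20 enzymes that use what the carriers bring, 7 were higher and 4 lower in females, and 4 and 3 in males, with Alas1, the first enzyme of heme synthesis, at -1.01 (adjusted p = 0.00478) in females beside the fall of Slc25a37. Without male DHT 3 the male counts fell to 1 and 0 for the import machinery, 2 and 0 for other transport, 1 and 0 for mass and biogenesis and 1 and 1 for the enzymes. The share of all genes called in males fell with them, from 22.8% to 7.2%. No gene of these 5 lists was called for the difference between the sexes, where 1.86% of all genes were called.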

How the data were processed

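Libraries were made by the authors from spinal cord RNA with a directional kit and sequenced as read pairs. By the submitters' processing notes and the Methods, FastQC and Picard served for quality control, fastp for trimming, and DRAGEN for alignment and counting on mm10. The authors joined the female with the male dataset by RUVSeq on housekeeping genes, normalized the result with edgeR and left out low genes. The authors deposited log2 CPM values per library. Their own comparison columns, log2 fold changes and p-values for pairs of groups, were not used.

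The value of 1 read in each library was found from low values, and 100% of values came out as whole numbers within 0.05, with an offset CPM of 0.0631. As they follow the normalization of the authors, these recovered reads are adjusted counts and not raw reads. Totals were 29311155 to 35761972. Precision was taken from the spread between libraries, which may be technical. To all 14 libraries in 4 groups a linear model of limma (version 3.58.1, R 4.3.3, functions lmFit, contrasts.fit and eBayes with trend) was fitted without a further pseudocount or filter, and p-values were adjusted by Benjamini-Hochberg over all 16703 genes. It gave DHT against vehicle in each sex and the difference of these effects. No pairing was used. In simulated data with 200 changed genes, those changed by a log2 of 1 were recovered at 74% in females and 72% in males. The false calls there numbered 11 and 7. Recovery of smaller changes, or with shares of changed genes as large as those called here, was not tested.

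Full values are given for the 8 carriers of smallest p in each sex, the 4 of smallest p for the difference, and the members of related pairs, 25 in all, and 1 member is not reported by name here. Members and lists were chosen with earlier results of these data known. Alternatives were each library left out, other scalings, pseudocounts, filters, covariates and weights, each sex alone, and voom on the recovered reads. Lengths and overlaps came from a GENCODE annotation of the same build. Python 3.11.15 with numpy 2.4.6 and pandas 2.3.3 was used for tables.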

Additional observations from a re-analysis of the deposited data

Results flagged for a closer look

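Of the carriers, 2 had a fold change with DHT that differed between females and males by the test of the difference itself (females minus males), where 1.86% of all genes were called. Slc25a33 had a difference of 0.63 (adjusted p = 0.0333) and Slc25a29 of 0.79 (adjusted p = 0.0424), each being higher with DHT in 3 of 3 female libraries and lower in 3 of 3 male libraries than in every vehicle library of the same sex. These male libraries include male DHT 3, which adds next to no observation of its own. Of all genes 19.0% were higher without overlap in females and 20.4% lower without overlap in males. Both calls held without female vehicle 3, female DHT 3 or male DHT 4, and both were lost without any of the other 11 libraries, male DHT 3 included. In those 11 analyses the difference stayed between 0.69 and 0.83 for Slc25a29 and between 0.57 and 0.69 for Slc25a33, and in 8 of them no gene of the table was called for the difference. Sex and dataset cannot be told apart.

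In 84 groups of 4 vehicle libraries, 11 held a library that stood far from the other 3 by Dixon's criterion, where chance gives about 1 in 20. In male vehicle libraries the value was high for Slc25a4 (8.80, vehicle 3), Slc25a10 (5.20, vehicle 4), Slc25a15 (4.40, vehicle 2), Slc25a20 (4.44, vehicle 3), Slc25a26 (3.16, vehicle 1) and Slc25a42 (4.60, vehicle 3), and low for Slc25a34 (2.92, vehicle 2) and Slc25a43 (0.86, vehicle 1). Among female vehicle libraries it was low for Slc25a23 (7.15, vehicle 4) and Slc25a30 (4.86, vehicle 3) and high for Slc25a47 (1.61, vehicle 2). No single vehicle library held most of these values. The same count over all genes is not given here, and the carriers were measured in the same libraries, so an excess among the carriers is not shown. For Slc25a10 the remaining male vehicle libraries, at 4.78 to 4.84, also lay above every male DHT library.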

How the results depend on the processing

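Slc25a10 in males was called in each of 27 alternative analyses, with fold changes from -0.80 to -0.66, and Slc25a39 in males in all but the one with a housekeeping factor as a covariate. Analyses that left out only female libraries could not move a male fold change, only its SE and adjusted p. Leaving out 1 library at a time gave 4 to 15 carriers higher and 4 to 11 lower in females, 0 to 3 higher and 2 to 10 lower in males, and 0 to 7 positive and 0 to 3 negative differences between the sexes. Of all genes 26.3% to 53.2% were then called in females, 7.2% to 28.9% in males and 0.0% to 25.4% for the difference. The 7 positive and 3 negative differences came without female DHT 3, where the share of all genes was 25.4%. Without female vehicle 3 and male DHT 3 the males had 0 higher and 2 lower and the difference 0. In that fit 6.54% of all genes were called in males, and no gene of the table was called for the difference. With the missing direction as a covariate males had 0 and 3 and the difference 0, where 10.2% of all genes were called in males and no gene for the difference. Without female DHT 1 and DHT 2, added after the data were seen, females had 0 higher, 0 lower and the difference 0, in a fit where 1 DHT library was left, the spread came from the other groups and no gene of the table was called for either, so these counts say nothing of the carriers. A housekeeping factor as a covariate gave 0 and 0 calls in females, where no gene of the table was called. It gave 0 and 2 in males and 0 for the difference, where 5.33% and 0.569% of all genes were called. The same factor turned the female fold change of Slc25a5 to 0.0057, of Slc25a20 to 0.017, of Slc25a23 to -0.040 and of Slc25a45 to 0.15, none of them called. It lay apart between DHT and vehicle libraries in both sexes, at -0.07 to 0.10 against -0.29 to -0.21 in males. A fit with this factor therefore cannot tell it from DHT. Centring on housekeeping genes moved the female median of all genes from -0.02 to 0.26 and gave 28 higher and 4 lower carriers in females, 4 positive differences, and Slc25a5 at 0.091. Of all genes 44.1% and 15.3% were then called in females, and 2.9% had a positive difference called. Quantile normalization moved the female median of all genes to 0.13 and gave 20 and 5 in females, where 30.7% and 19.4% of all genes were called. Each sex fitted alone gave 6 and 4 in females, where 28.5% of all genes were called. Array weights gave 5 higher in males and 8 positive and 2 negative differences, where 36.3% and 21.1% of all genes were called. A fit with no trend gave 1 positive difference, where 0.635% of all genes were called for the difference. In each case the cause was not tested. Pseudocounts of 0.5 and 1, the filter at a mean log2 CPM of 1 and voom on recovered reads kept every count within 1.5 times. The low reads of Slc25a21 limit what its wide intervals can show. No paired analysis was possible because every label gives the same replicate number.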
